A study of Mus musculus with 6 samples.

Results

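The Notch genes described here are 4 receptors (Notch1, Notch2, Notch3 and Notch4), 3 ligands (Dll1, Dll4 and Jag1) and 3 target genes (Hes1, Hey1 and Heyl), 10 of the 22180 genes measured. Each was read from a probe set that the array annotation assigns to that symbol alone, and where a gene had several such probe sets the brightest was taken. All 10 were measured. The cells came from mouse gliomas, were sorted with magnetic beads for CD105 (endoglin, encoded by Eng), kept for 12 h in glioma-conditioned medium and labelled tumor-associated endothelial cells. The Tie2-Cre group consisted of mice 1, 3 and 4, genotype Tie2-Cre,Pfn1fl/fl:Y129F. The no Cre group consisted of mice 6, 7 and 10, genotype Pfn1fl/fl:Y129F, so the floxed Pfn1 alleles and the Y129F form of profilin-1 were shared by both groups. The labels give no age and do not say what Cre does to these alleles. The Tie2 promoter is active in endothelial cells and in part of the blood lineage, so Cre is not limited to the vessel wall in such mice. According to its title, the series concerns the phosphorylation of profilin-1 and gene expression in these cells.

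Notch receptors are membrane proteins that are cut when a ligand of the Delta-like or Jagged family on a neighbouring cell binds them. The freed intracellular part enters the nucleus, joins the DNA-binding protein RBPJ and a Mastermind-like coactivator, and switches on genes such as those of the Hes and Hey repressors. In blood vessels, Dll4 and Notch1 restrain the number of sprouting tip cells, Notch4 is found mainly in endothelium, and Notch3 is the receptor typical of pericytes and vascular smooth muscle, which endothelial Jag1 can engage.

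Values are log2 of RMA intensities, and a change is the mean of the Tie2-Cre arrays minus the mean of the no Cre arrays with the standard error (SE) of a limma fit over all 22180 genes. A gene passed when its Benjamini-Hochberg adjusted p lay under 0.05. Array medians lay between 7.08 and 7.14 log2, and arrays correlated across genes with Pearson's r of 0.994 to 0.996 within and 0.986 to 0.988 between groups. Pfn1 lay at 12.41 ± 0.0045 (SD, n = 3 mice) with Tie2-Cre and at 12.37 ± 0.026 (SD, n = 3 mice) without Cre. Its change was 0.04 (SE 0.062, limma adjusted p 0.776, exact permutation p 0.1). The labels do not say whether the probe set reads the floxed part or tells the Y129F form apart. The groups also differed in sex-linked genes: Xist, the RNA that silences one X chromosome, was lower with Tie2-Cre (-5.59, SE 0.17) and the Y-linked Uty higher (4.47, SE 0.13), without overlap. Genotype and the sex-linked difference cannot be told apart in any comparison given here. Of 16 endothelial markers, 13 had a mean level below the median of all genes (7.12 log2). Among these were Pecam1 (6.24 and 6.23 with and without Cre) and Emcn (4.28 and 4.27). Eng, which encodes the sorting marker, was bright (11.76 and 12.05), and Flt1 (8.68 and 7.57) and Ptprb (8.00 and 7.97) also lay above that median. Because brightness depends on the probe set, such levels give no shares of cells. In RNA from whole cell preparations, a change in the number of cells of a type and a change in RNA per cell cannot be told apart.

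Notch3 and Jag1 were the members higher with Tie2-Cre, by 2.11-fold and 1.54-fold. The other receptors, the Delta-like ligands and the target genes Hes1, Hey1 and Heyl did not pass. In all, 2 of 10 members were higher, where 4.78% of all genes were higher, and 0 were lower, where 7.17% of all genes were lower (limma, with also 0 lower at an unadjusted p under 0.05). In either direction, 12.0% of all genes passed. These shares over all genes were not matched to the members for brightness. The median change was 0.04 over the members and -0.0042 over the 22180 genes. Arrays of the groups were fully apart in 3 members, which was so for 31.0% of all genes: Notch3 and Jag1 with Tie2-Cre above (13.6% of all genes) and Notch2 with Tie2-Cre below (17.5%).

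**Figure D1:**
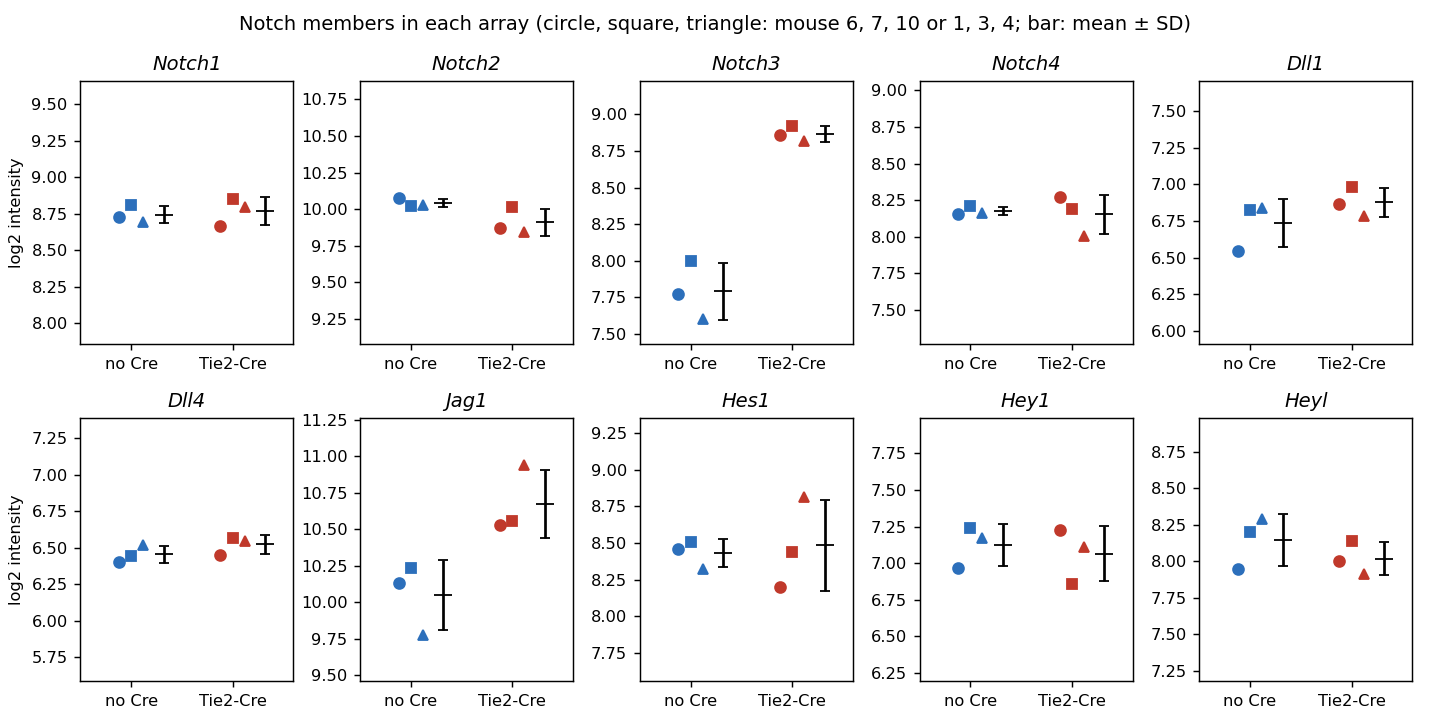
Log2 intensity of each Notch gene in each array, no Cre mice in blue and Tie2-Cre mice in red, with the mean and SD of each group of 3 in black; every panel spans the same log2 range around its own mean. For Notch3 the red points span 8.82 to 8.92 and the blue points 7.60 to 7.99, while the arrays of Hes1, Hey1 and Heyl overlap between the groups.

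Among the receptors, Notch3 was read at 8.86, 8.92 and 8.82 log2 in Tie2-Cre mice 1, 3 and 4. It was read at 7.77, 7.99 and 7.60 in no Cre mice 6, 7 and 10. The lowest Tie2-Cre array lay 0.82 above the highest no Cre array, and the no Cre mice spread more (SD 0.20, against 0.053 with Tie2-Cre). The rise was 1.08 log2 (SE 0.10, 95% confidence interval 0.84 to 1.31, adjusted p 0.000578), and 263 genes changed by more in absolute terms. By exact permutation (two-sided), p was 0.1, which is the lowest value possible with 3 mice a group. Without any 1 mouse the rise was 0.98 to 1.18 (adjusted p at most 0.0042).

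To show the region from which the Notch3 transcript starts, its RefSeq promoter window (GRCm38.p6, chr17:32166841-32167140, minus strand, 250 bases before to 50 bases after the start) is printed 5′ to 3′, with matches to the GC box GGGCGG on either strand in capitals.
Notch3: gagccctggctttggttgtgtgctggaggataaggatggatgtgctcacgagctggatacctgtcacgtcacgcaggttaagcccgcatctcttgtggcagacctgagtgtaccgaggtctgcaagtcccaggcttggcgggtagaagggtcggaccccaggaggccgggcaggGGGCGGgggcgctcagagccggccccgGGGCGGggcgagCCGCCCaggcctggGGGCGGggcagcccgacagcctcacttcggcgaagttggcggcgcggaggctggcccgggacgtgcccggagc
The window was 70.0% G and C, where the median of 32851 windows was 52.7%. It held 4 matches to the GC box, a motif present in 35.7% of all windows. The windows of Notch1 and Notch2, which did not pass, held 5 and 7 and were 68.3% and 73% G and C. The Notch3 window held no match to the RBPJ core, TGGGAA, which 25.6% of windows held. It also held none to the E box, CACGTG, which 7.15% of windows held, or to the class C site of Hes and Hey proteins, CACGCG, which 9.27% held. Both strands were searched, and no matches overlapped.

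Notch1, the receptor that acts with Dll4 in sprouting vessels, was read at 8.67, 8.85 and 8.79 with Tie2-Cre and at 8.73, 8.81 and 8.70 without Cre. The groups overlapped, with a change of 0.03 (SE 0.076, 95% confidence interval -0.15 to 0.20, adjusted p 0.882). Notch4 was read at 8.27, 8.19 and 8.00 with Tie2-Cre, a range that contained the no Cre arrays at 8.16, 8.21 and 8.16. Its change was -0.02 (SE 0.083, interval -0.21 to 0.17, adjusted p 0.907).

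Notch2 lay at 9.87, 10.02 and 9.84 with Tie2-Cre. It lay at 10.08, 10.02 and 10.03 without Cre. All Tie2-Cre arrays were below all no Cre arrays, but by a gap of 0.0073 log2 only, and the change of -0.13 (SE 0.073, interval -0.30 to 0.03) did not pass (adjusted p 0.315).

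Jag1, the Jagged ligand, was read at 10.53, 10.56 and 10.94 in Tie2-Cre mice 1, 3 and 4 and at 10.13, 10.24 and 9.78 in no Cre mice 6, 7 and 10. Mouse 4 was the highest array and mouse 10 the lowest. The groups did not overlap, and the lowest Tie2-Cre array (mouse 1) lay 0.29 above the highest no Cre array (mouse 7). The rise was 0.63 log2 (SE 0.15, 95% confidence interval 0.28 to 0.97, adjusted p 0.032), and 859 genes changed by more in absolute terms. Its call was lost when mouse 1, 3, 4, 6 or 10 was left out (0.49 to 0.70, adjusted p 0.0523 to 0.0877) and with all probe sets of the array tested (adjusted p 0.0861). It was kept when mouse 7 was left out (adjusted p 0.0439).

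The Jag1 window (RefSeq, GRCm38.p6, chr2:137116471-137116770, minus strand) is shown as that of the other gene past the threshold, with matches to the class C site on either strand in capitals.
Jag1: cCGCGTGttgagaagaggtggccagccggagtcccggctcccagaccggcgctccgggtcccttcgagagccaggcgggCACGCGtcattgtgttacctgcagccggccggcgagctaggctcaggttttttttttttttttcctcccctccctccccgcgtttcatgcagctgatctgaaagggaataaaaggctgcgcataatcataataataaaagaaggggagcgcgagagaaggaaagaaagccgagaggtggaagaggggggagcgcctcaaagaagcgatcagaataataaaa
It was 55.7% G and C and held 2 matches to the class C site, beginning 249 and 171 bases before the start, but none to the GC box, the RBPJ core or the E box. The Notch3 and Jag1 windows thus had no searched motif in common. A window each of Dll1, Dll4 and Notch2, genes that did not pass, also held 1 match to the class C site. RefSeq windows were matched for 7 of the 10 members, 8 windows in all, and the RBPJ core was found in 0 of the 8.

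The Delta-like ligands showed small differences. With Hey1, they were the 3 members whose mean level lay below the median of all genes (7.12 log2), and the data hold no detection calls. Dll4, the ligand of arterial and tip cells, was read at 6.45, 6.57 and 6.55 with Tie2-Cre and at 6.40, 6.45 and 6.52 without Cre. The groups overlapped (0.07, SE 0.070, interval -0.09 to 0.23, adjusted p 0.629). A further probe set, which the annotation shares between Dll4 and Gm14207, gave -0.04 (SE 0.087). Dll1 was read at 6.86, 6.98 and 6.78 with Tie2-Cre and at 6.55, 6.82 and 6.84 without Cre, where mouse 6 was the low array. Its change was 0.14 (SE 0.10, interval -0.09 to 0.37, adjusted p 0.453), and the dimmer of its 2 probe sets gave -0.06 (SE 0.094), so the probe sets differed in sign.

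**Figure D2:**
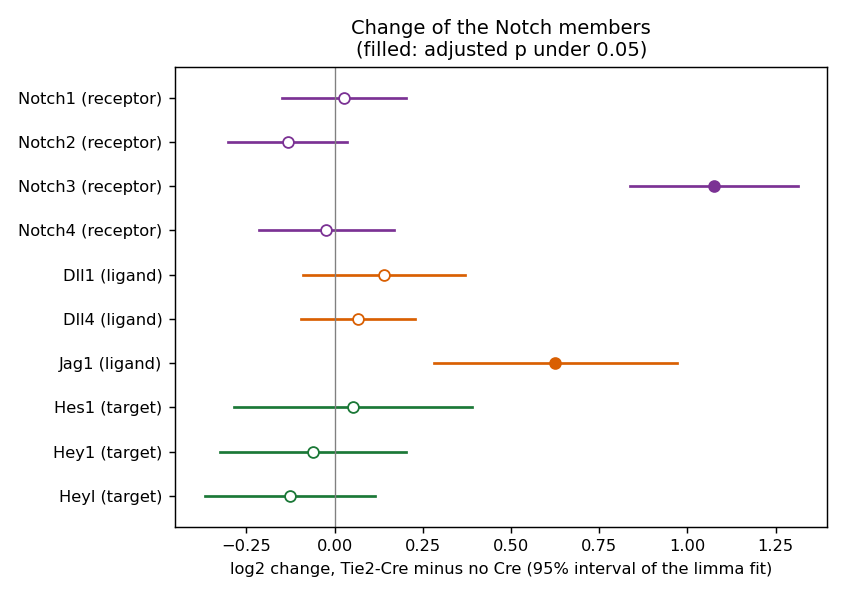
Log2 change of each Notch gene, Tie2-Cre minus no Cre, with the 95% interval of the limma fit from 6 arrays; receptors are purple, ligands orange, targets green, and filled points passed an adjusted p of 0.05. Notch3 (1.08) and Jag1 (0.63) are filled, and the other 8 genes lie between -0.13 and 0.14.

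The 3 target genes encode transcriptional repressors that Notch signals induce. Hes1 was read at 8.20, 8.44 and 8.81 in Tie2-Cre mice 1, 3 and 4 and at 8.46, 8.51 and 8.32 without Cre. The Tie2-Cre arrays lay on both sides of the no Cre arrays, with an SD of 0.31 against 0.097, and mouse 4 was the highest for Hes1 as for Jag1. The change was 0.05 (SE 0.15, interval -0.28 to 0.39, adjusted p 0.879).

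Hey1 was read at 7.23, 6.86 and 7.11 with Tie2-Cre and at 6.96, 7.24 and 7.17 without Cre. Its change was -0.06 (SE 0.11, interval -0.32 to 0.20, adjusted p 0.805). Heyl, which in vessels is found mainly in mural cells, was read at 8.01, 8.14 and 7.91 with Tie2-Cre and at 7.95, 8.20 and 8.29 without Cre. The groups overlapped for both genes. For Heyl the change was -0.13 (SE 0.11, interval -0.37 to 0.12, adjusted p 0.529). Over the 8 members that did not pass, the lowest interval bound was -0.37 (Heyl) and the highest 0.39 (Hes1).

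Beyond these members, a list of 74 genes of the same pathway was drawn up, of which 70 were measured. Of the 70, 4 were higher, 4 lower and 62 did not pass, which is 11.4% past the threshold beside 12.0% of all genes, and their median change was 0.06. The lower ones numbered 0 without mouse 6 or 7, 1 without mouse 10, 2 without mouse 1 or 3 and 0 with all probe sets tested (limma, 7 at an unadjusted p under 0.05). The remaining genes of the list were not analysed here. Over all genes, 4.78% were higher and 7.17% lower, the shares to set beside the class counts that follow. These shares are not matched for brightness: only 16 of the 70 genes had a mean level below the median of all genes. With the dimmest 33.3% of genes left out, 1360 of all remaining genes were higher and 1950 lower. In that setting, 6 of the other pathway genes were higher and 5 lower.

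In the nuclear complex that receptors feed into, 1 of 9 genes was higher and 1 lower. Rbpj, the DNA-binding partner of the receptors, was read at 11.23, 11.10 and 10.88 with Tie2-Cre and at 11.38, 11.50 and 11.44 without Cre. The groups did not overlap, and the change was -0.37 (SE 0.097, adjusted p 0.045). This call was lost when mouse 3, 4, 6, 7 or 10 was left out (adjusted p 0.085 to 0.137), with a second quantile normalization (0.0612) and with all probe sets tested (0.106). Maml2, a Mastermind-like coactivator, was read at 11.52, 11.56 and 11.56 with Tie2-Cre and at 11.17, 11.23 and 11.02 without Cre. Its rise of 0.40 (SE 0.075, adjusted p 0.0116) passed under all 14 alternatives.

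Of 9 measured corepressors, 1 was higher and 1 lower. Fhl1, a LIM protein gene with an isoform that binds RBPJ, was higher by 0.61 (SE 0.12, adjusted p 0.0148), a call lost when mouse 6 (adjusted p 0.0532) or 10 (0.0581) was left out. Tle1, a Groucho-type corepressor that Hes proteins recruit, changed by -0.33 (SE 0.071, adjusted p 0.0205). Its call was lost when mouse 1, 6 or 7 was left out (adjusted p 0.0618 to 0.0748), with the mean of its probe sets (0.0667) and with all probe sets tested (0.0568). In the class of sugar-adding enzymes that modify receptors, 1 of 6 was lower. It was Poglut1, the O-glucosyltransferase of the receptors (-0.31, SE 0.073, adjusted p 0.0295), whose call was lost when mouse 1, 4, 6, 7 or 10 was left out (adjusted p 0.0662 to 0.0944) and with all probe sets tested (0.0749).

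The proteases that cut the receptors, Adam10, Adam17, furin and the gamma-secretase subunits, held 0 of 8 past the threshold (limma, and 0 at an unadjusted p under 0.05), with changes from -0.11 to 0.13. None of the other ligands Dll3 and Jag2 (0.15 and 0.17) or of 6 atypical ligands and ligand modulators passed, with 0 at an unadjusted p under 0.05. Ligand endocytosis genes (0 of 6) and genes of receptor endocytosis and turnover (0 of 9) did not pass either by limma, with 1 and 2 higher and 0 lower at an unadjusted p under 0.05.

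Among 6 other targets, 2 were higher. Snai2, a repressor of epithelial genes that is also abundant in mesenchymal cells, was read at 11.16, 11.18 and 11.34 with Tie2-Cre and at 10.53, 10.42 and 10.34 without Cre (0.80, SE 0.082, adjusted p 0.000838). Efnb2, the ephrin of arterial endothelium and mural cells, was read at 9.81, 9.93 and 9.92 with Tie2-Cre and at 9.36, 9.37 and 9.52 without Cre (0.47, SE 0.075, adjusted p 0.00598). Neither gene overlapped between groups, and both passed under all 14 alternatives. Nrarp, a feedback inhibitor and direct target, did not pass (0.08, SE 0.091, adjusted p 0.673).

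Of 9 other genes of the Hes and Hey families and their relatives, 0 were higher (limma, with 2 at an unadjusted p under 0.05) and 1 was lower. The lower one was Bhlhe40 (-0.37, SE 0.086, adjusted p 0.0284), a repressor that also answers to hypoxia and the clock, and its call was lost when mouse 3, 4, 6, 7 or 10 was left out (adjusted p 0.0549 to 0.0975) and with all probe sets tested (0.0749). Hey2, named after its values were seen, was read at 6.21, 6.57 and 6.99 with Tie2-Cre and at 7.11, 7.14 and 7.17 without Cre. The groups did not overlap, but the Tie2-Cre mice differed widely among themselves and the change of -0.55 (SE 0.17) did not pass (adjusted p 0.0815).

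**Figure D3:**
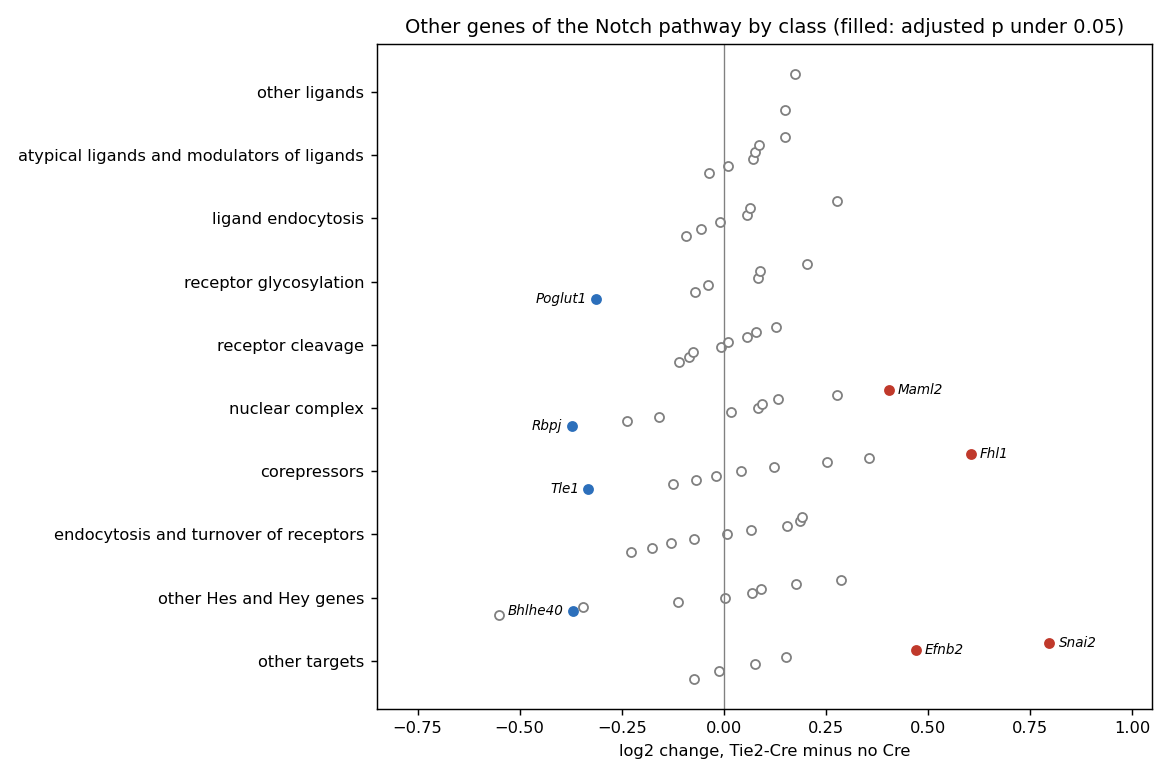
Log2 change, Tie2-Cre minus no Cre, of 70 other genes of the Notch pathway, 1 point per gene, arranged by class; red points were higher and blue points lower at an adjusted p under 0.05, and open points did not pass. The 4 higher genes reach 0.80 (Snai2), and the open point farthest to the left is Hey2 at -0.55.

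Markers of mural cells, in which Notch3 is typical, were read in the same arrays. Of 15 pericyte and smooth muscle markers, 5 were higher (33.3%, beside 4.78% of all genes), 1 was lower (6.67%, beside 7.17%) and 9 did not pass. Their median change was 0.28, and the list was chosen with earlier results of these data known. Only 3 of the 15 had a mean level below the median of all genes. Leaving out mouse 1, 6, 7 or 10 gave 3 higher, and leaving out mouse 3 or 4 gave 4 and 8. Rgs5, a pericyte signalling regulator, was read at 11.75, 11.78 and 11.78 with Tie2-Cre and at 10.28, 10.31 and 10.36 without Cre (1.45, SE 0.063, adjusted p 1.29e-05). Also higher were the smooth muscle myosin Myh11 (0.92, SE 0.25, adjusted p 0.0483), the proteoglycan Cspg4 (0.67, SE 0.13, adjusted p 0.0121), the actin Acta2 (0.47, SE 0.082, adjusted p 0.00857) and the PDGF receptor Pdgfrb (0.27, SE 0.064, adjusted p 0.0304). The call of Myh11 was lost when mouse 1, 6, 7 or 10 was left out (adjusted p 0.0519 to 0.126) and that of Pdgfrb when mouse 1, 3, 6, 7 or 10 was left out (0.0749 to 0.105). With all probe sets tested, neither passed (0.118 and 0.0737). Myh11 also did not pass after a second quantile normalization (0.0505) or with trend and robust (0.0552). Ndufa4l2 was lower (-0.79, SE 0.088, adjusted p 0.00111). The summed intensity of the 15 markers was 31448 to 38111 with Tie2-Cre and 22635 to 24113 without Cre. Acta2 (13.77 log2 with Tie2-Cre and 13.30 without Cre) and Tagln (12.72 and 12.37) were the brightest and weighed most in these sums. Tagln did not pass. The median log2 level of the list was 8.94 to 9.83 with Tie2-Cre and 8.53 to 8.62 without Cre. Tie2-Cre mouse 4, the highest array for Jag1 and Hes1, was also the highest for the contractile gene Myh11 (10.05, beside 9.05 and 9.05 in mice 1 and 3) and, named after their values were seen, for Cnn1 (11.63, beside 10.08 and 10.14) and Mcam (10.09, beside 8.47 and 8.37). The other markers of the list were mixed in this respect. Mouse 4 was also the highest array for Acta2, Cspg4, Tagln and Higd1b. It was the lowest Tie2-Cre array for Pdgfrb, Anpep and Ndufa4l2. For Rgs5, Des, Kcnj8, Abcc9 and Vtn it lay between mice 1 and 3. For Notch3, mouse 4 was the lowest Tie2-Cre array. Without it, the change was 1.10 for Notch3 (adjusted p 0.00224) and 0.49 for Jag1 (adjusted p 0.0743). The part of mural cells in the Notch3 and Jag1 values was not tested.

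Other cell types were read in the same way, again to be set beside 4.78% of all genes higher and 7.17% lower. Of 16 endothelial markers, Flt1 was higher (1.11, SE 0.25) and Eng lower (-0.30, SE 0.064), and 14 did not pass. That is 12.5% past the threshold, beside 12.0% of all genes. Flt1 was lost without mouse 6, 7 or 10 (adjusted p 0.0655 to 0.0909) and with all probe sets tested (0.0774), and Eng without mouse 1, 4, 6, 7 or 10 (0.0571 to 0.0827) and with all probe sets tested (0.0574). The endothelial list had summed intensities of 5017 to 5444 with Tie2-Cre and 5642 to 5884 without Cre. Eng was by far its brightest marker (11.76 log2 with Tie2-Cre and 12.05 without Cre) and so weighed most in these sums. The median log2 level of the endothelial list overlapped between the groups, at 6.23 to 6.42 with Tie2-Cre and 6.22 to 6.28 without Cre. Of 11 fibroblast markers, 4 were higher, the matrix genes Dpt (3.54, SE 0.10) and Lum (1.27, SE 0.16), the PDGF receptor Pdgfra (1.65, SE 0.13) and the surface protein Thy1 (0.87, SE 0.076), and the bright proteoglycan gene Dcn was lower (-0.76, SE 0.10). The median log2 level of the fibroblast list was 11.05 to 11.55 in the Tie2-Cre arrays and 9.92 to 10.02 in the no Cre arrays, while its summed intensity was 28255 to 30354 and 27082 to 27537. Of 14 macrophage and microglia markers, 2 were lower (summed intensity 1432 to 1555 with Tie2-Cre and 1639 to 1700 without Cre). Of 8 astrocyte and glioma markers, 2 were higher (990 to 1024 and 793 to 825). Of 8 mesothelial markers, 3 were lower (1318 to 1506 and 3338 to 3714) and 5 did not pass. The lower ones were Upk1b (-3.29, SE 0.16), Upk3b (-1.36, SE 0.12) and Krt19 (-0.42, SE 0.10). Upk1b and Upk3b were the brightest without Cre (10.49 and 10.40 log2) and weighed most in those sums. The part of these cell types in the values of the Notch genes was not tested.

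**Figure D4:**
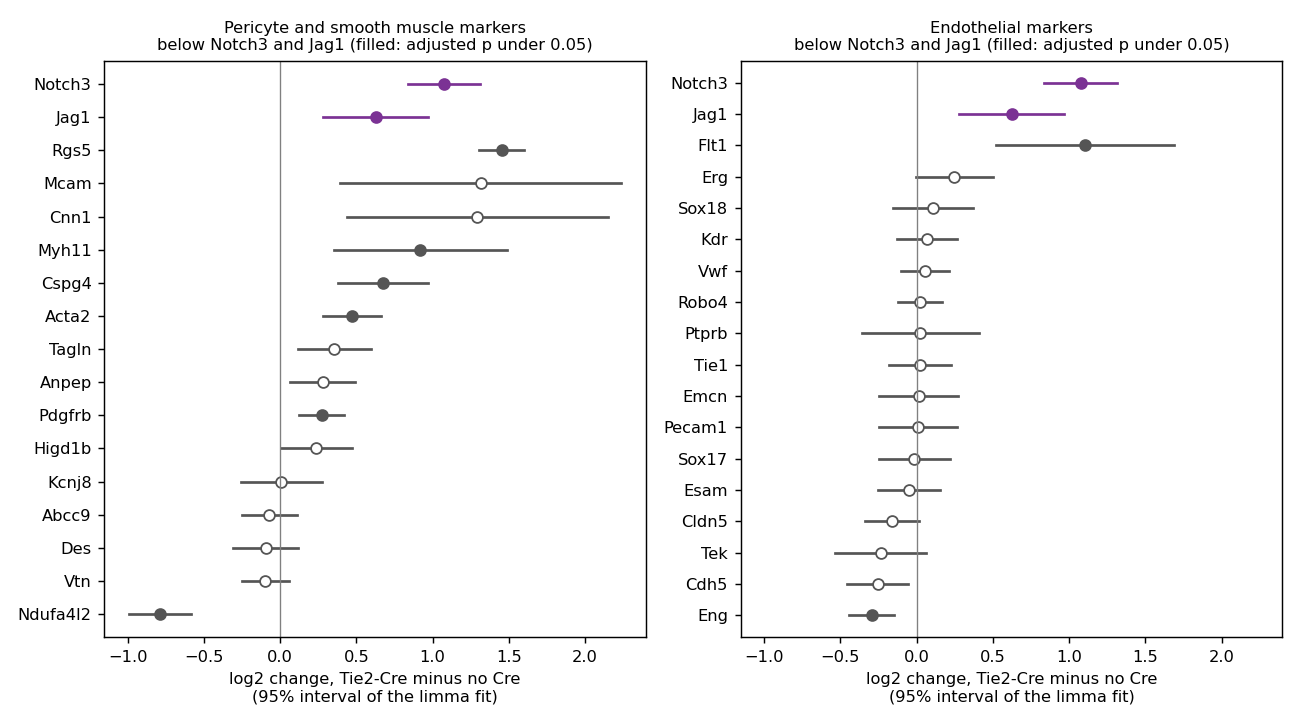
Log2 change, Tie2-Cre minus no Cre, with the 95% interval of the limma fit from 6 arrays, for Notch3 and Jag1 (purple) above 15 pericyte and smooth muscle markers (left) and 16 endothelial markers (right); filled points passed an adjusted p of 0.05. On the left 5 markers are filled to the right of 0, up to Rgs5 at 1.45, and on the right only Flt1 (1.11) and Eng (-0.30) are filled.

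The genes whose centred log2 values over the 6 arrays lay closest to those of Notch3 were Akap6, a kinase anchoring protein (distance 0.13 log2, change 1.09, SE 0.081), and Gamt, an enzyme of creatine synthesis (distance 0.15, change 1.15, SE 0.096). Closest to Jag1 were the monoamine oxidase Maob (distance 0.15, change 0.59, SE 0.13) and the growth factor Bmp4 (distance 0.15, change 0.64, SE 0.13). The 6 arrays hold a single contrast between groups, and these likenesses over 22180 genes are a description with no test.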

How the data were processed

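RNA of 6 mice, 1 array each, was measured on Mouse Gene 2.0 ST arrays (Affymetrix). Per the labels, the authors derived the deposited intensities by RMA (Affymetrix Expression Console per the submitters' processing notes, version and genome build not given in the sources used here). They are on a linear scale (5.13 to 17822), already background-corrected and quantile-normalized, and have no detection calls, so background understates changes of dim genes. Log2 was taken with no further scaling. Of 41345 probe sets, 23521 had 1 gene symbol, 1814 several and 16010 none listed, and the brightest probe set per symbol left 22180 genes. The test was a two-sided limma fit (version 3.58.1, lmFit with eBayes, run in R 4.3.3), checked on simulated data. The number of arrays limits precision: the median SD was 0.10 log2 with Tie2-Cre and 0.089 without Cre. No mouse number occurs in both groups, so none were paired.

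Members and gene lists were chosen with earlier results of these data known. All members were named, with up to 4 genes per pathway class and direction that passed, Pfn1, sex-linked genes and, for each member past the threshold, the 2 genes at the smallest Euclidean distance. Alternatives are given in the closing section. Sequences are from RefSeq (GRCm38.p6).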

Additional observations from a re-analysis of the deposited data

How the results depend on the processing

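The 14 alternatives were all probe sets tested, a minimum mean log2 of 5, the dimmest 33.3% of genes left out, a second quantile normalization, arrays centred on their median, the mean of a gene's probe sets, eBayes with trend and robust, array weights, and leaving out each mouse in turn (6). Of 140 values of the members, all but 11 kept their direction and side of the threshold. Of these 11, 6 were no longer past it, all of them Jag1, and 5 changed sign when 1 mouse was left out, none of which passed. The sign changed for Notch1 without mouse 3 (range over the 6 omissions -0.015 to 0.079), for Notch4 without mouse 4 (-0.081 to 0.051), for Hes1 without mouse 4 (-0.11) or mouse 10 (-0.0017; range up to 0.19), and for Hey1 without mouse 3 (-0.14 to 0.042). Notch3 passed under all 14 (0.98 to 1.18). With all probe sets tested, 1 member was higher and 0 other pathway genes were lower by limma (7 at an unadjusted p under 0.05). Leaving out 1 mouse gave 1 to 2 members higher, 0 lower by limma (at an unadjusted p under 0.05 also 0 with all mice), 3 to 5 other pathway genes higher and 0 to 3 lower, and over all genes 634 to 903 higher and 910 to 1253 lower. With all mice, 1061 were higher and 1591 lower. With the dimmest 33.3% of genes left out, 1360 were higher and 1950 lower. The median change of all genes was 0.0016 after the second quantile normalization and -0.0019 with centred arrays. No paired analysis was possible because the groups share no mouse number. The cause of these shifts was not tested.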
